A study of Mus musculus with 6 samples.

Results

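The adult neurogenesis genes were 9 genes chosen by name for their place in the lineage that makes new granule neurons in the dentate gyrus: Nes and Sox2 for neural stem cells, Eomes, Neurog2 and Neurod1 for progenitors, Sox11, Dcx and Igfbpl1 for neuroblasts, and Tubb3 for immature neurons. They were 9 of the 52550 genes in the count files, each matched by its symbol in GENCODE vM21, and all 9 were among the 18795 genes that passed the filter on low counts. Hippocampal RNA from 3 sham and 3 traumatic brain injury (TBI) mice was sequenced at 24 h after surgery, with 1 library per mouse (Sham1 to Sham3 and TBI1 to TBI3). All mice were male, C57BL / 6 in the labels and C57B6/J in the methods, aged 8 to 10 weeks, anesthetized with ketamine and xylazine, and each had a craniotomy over the right parietal bone. The TBI mice then received a controlled cortical impact of moderate severity, in which a driven tip deforms the exposed cortex, whereas the sham mice received no impact. No untouched mice were included, so the sham group also carries the effects of anesthesia and craniotomy. Whole hippocampus was taken, and the methods describe exposing it on the opposite side as well. Whether a library held both sides is not given in the sources used here. The comparison asks which genes of the lineage differed in the hippocampus 1 day after the injury.

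In the adult dentate gyrus, radial stem cells of the subgranular zone give rise to dividing progenitors, which become neuroblasts and then immature granule neurons. The steps follow a cascade of transcription factors, from the stem cell factor Sox2 through the basic helix-loop-helix factor Neurog2 and the T-box factor Eomes to Neurod1, which is needed for the survival of new granule neurons. The dividing and migrating cells are few against the mature neurons and glia of a whole hippocampus. Several of the genes are also used outside this lineage. Sox2 is expressed by astrocytes, Nes by reactive astrocytes and vessel cells, Neurod1 by mature granule neurons of the dentate gyrus and of the cerebellum, Eomes by unipolar brush cells of the cerebellum, and Tubb3 by neurons of every age. Dcx, Sox11 and Igfbpl1 also mark the neuroblasts of the subventricular zone next to the striatum.

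The 3 progenitor genes Neurog2, Eomes and Neurod1 had the same 3 lowest libraries, as described after their levels, so the sequence before their start sites is shown here. The stretches were read from the RefSeq promoter windows on GRCm38.p6, 5′ to 3′ on the strand of the gene, and end where the start site or an annotated exon begins. Capitals mark CANNTG, the E-box bound by basic helix-loop-helix factors such as Neurog2 and Neurod1, and TATATAA, which resembles the box that positions transcription starts and was picked after the sequences had been read. Both were searched on both strands, and the 2 motifs do not overlap in these stretches.
Neurog2: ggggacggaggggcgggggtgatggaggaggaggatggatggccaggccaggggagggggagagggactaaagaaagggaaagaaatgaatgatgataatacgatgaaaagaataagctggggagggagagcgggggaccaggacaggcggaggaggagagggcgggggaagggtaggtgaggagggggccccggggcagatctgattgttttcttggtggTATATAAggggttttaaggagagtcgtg
Eomes: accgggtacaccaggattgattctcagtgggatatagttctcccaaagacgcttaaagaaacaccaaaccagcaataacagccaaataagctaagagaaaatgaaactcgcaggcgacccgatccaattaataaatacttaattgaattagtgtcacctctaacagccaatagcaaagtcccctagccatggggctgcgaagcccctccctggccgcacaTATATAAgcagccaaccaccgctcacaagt
Neurod1: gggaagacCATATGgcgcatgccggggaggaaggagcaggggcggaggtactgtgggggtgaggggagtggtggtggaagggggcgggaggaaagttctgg
The Neurog2 stretch lies at chr3:127632886-127633134 on the plus strand, the Eomes stretch at chr9:118477939-118478188 on the plus strand, and the Neurod1 stretch at chr2:79456786-79456886 on the minus strand. TATATAA stood near the downstream end of the Neurog2 and Eomes stretches. The Neurod1 window held TATATAA as well, in the bases that GENCODE counts as exon and that are not printed. In all, 3 of the 8 members with a window held TATATAA (Neurog2, Eomes and Neurod1), and 3.24% of 32851 mouse promoter windows of 300 bases held it. Since the motif was picked from these sequences, that contrast is fixed by the choice and says nothing particular about the 3 genes. CANNTG was found in 3 of the 8 (Sox2, Sox11 and Neurod1), against 72.3% of the windows.

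The estimated counts summed to between 31630936 and 41771872 per library, and CPM stands for counts scaled to the library's total and its TMM factor. No gene of the 18795 was called at 24 h by edgeR's quasi-likelihood test with Benjamini-Hochberg adjustment (a call needed an adjusted p below 0.1, an unadjusted p below 0.05 and a 1.5-fold difference in either direction), a background of 0%, and 806 genes (4.29%) had an unadjusted p under 0.05. Of the libraries 3 stood apart in the marker lists of other regions and states. In TBI1 the 8 striatal genes summed to 4921 CPM against 160 to 237 in the others, and the granule cell gene C1ql2 was at 2.45 CPM against 39.6 to 86.0. In TBI3 the 6 cerebellar genes summed to 1342 CPM against 19.4 to 94.8. In Sham2 the 6 reactive astrocyte genes summed to 4902 CPM against 631 to 1740, with each of the 6 highest in that library, although it was labelled sham. The 6 choroid plexus and ependyma genes summed to 38.9 CPM in Sham2, 230 in TBI1 and 251 in TBI3, against 1947 to 2257 in the other 3. The hippocampal principal neuron genes were detected in every library, summing to 689 CPM in TBI1 and 808 to 1144 elsewhere, with 8 of the 10 lowest in TBI1. Values of the 9 genes that rest on these 3 libraries are therefore given with and without them.

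**Figure D1:**
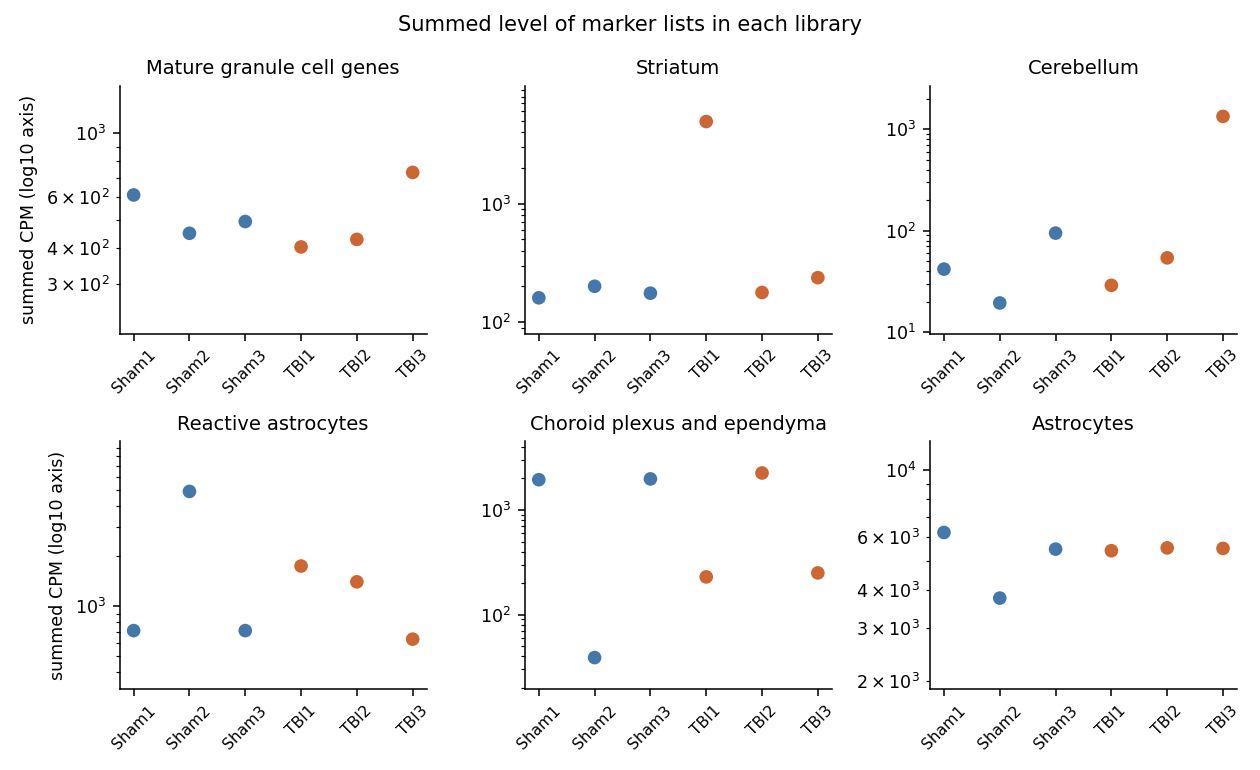
Summed level of 6 marker lists in each library, in CPM on a log10 axis that differs between panels, with sham libraries in blue and TBI libraries in orange. The striatal list stands at 4921 CPM in TBI1, the cerebellar list at 1342 CPM in TBI3 and the reactive astrocyte list at 4902 CPM in Sham2.

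None of the 9 neurogenesis genes differed between TBI and sham beyond the spread of the libraries. The call was made for 0 of the 9 by edgeR and for 0 by DESeq2, which with its defaults called 46 of 28118 genes (0.164%), and an unadjusted p under 0.05 was reached by 0 of the 9 with all 6 libraries in either tool, against 4.29% of all genes in edgeR and 4.11% in DESeq2. The log2 fold change was above 0 for Eomes, Neurod1 and Tubb3 and below 0 for the other 6, with a median of -0.14 beside 0.0091 for all tested genes. Adjusted p-values ran from 0.982 to 0.996 (edgeR quasi-likelihood test). The sham and TBI values overlapped for all 9, whereas they did not overlap for 10.2% of all tested genes. In whole hippocampus, fewer cells of a type and less RNA per cell cannot be told apart.

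**Figure D2:**
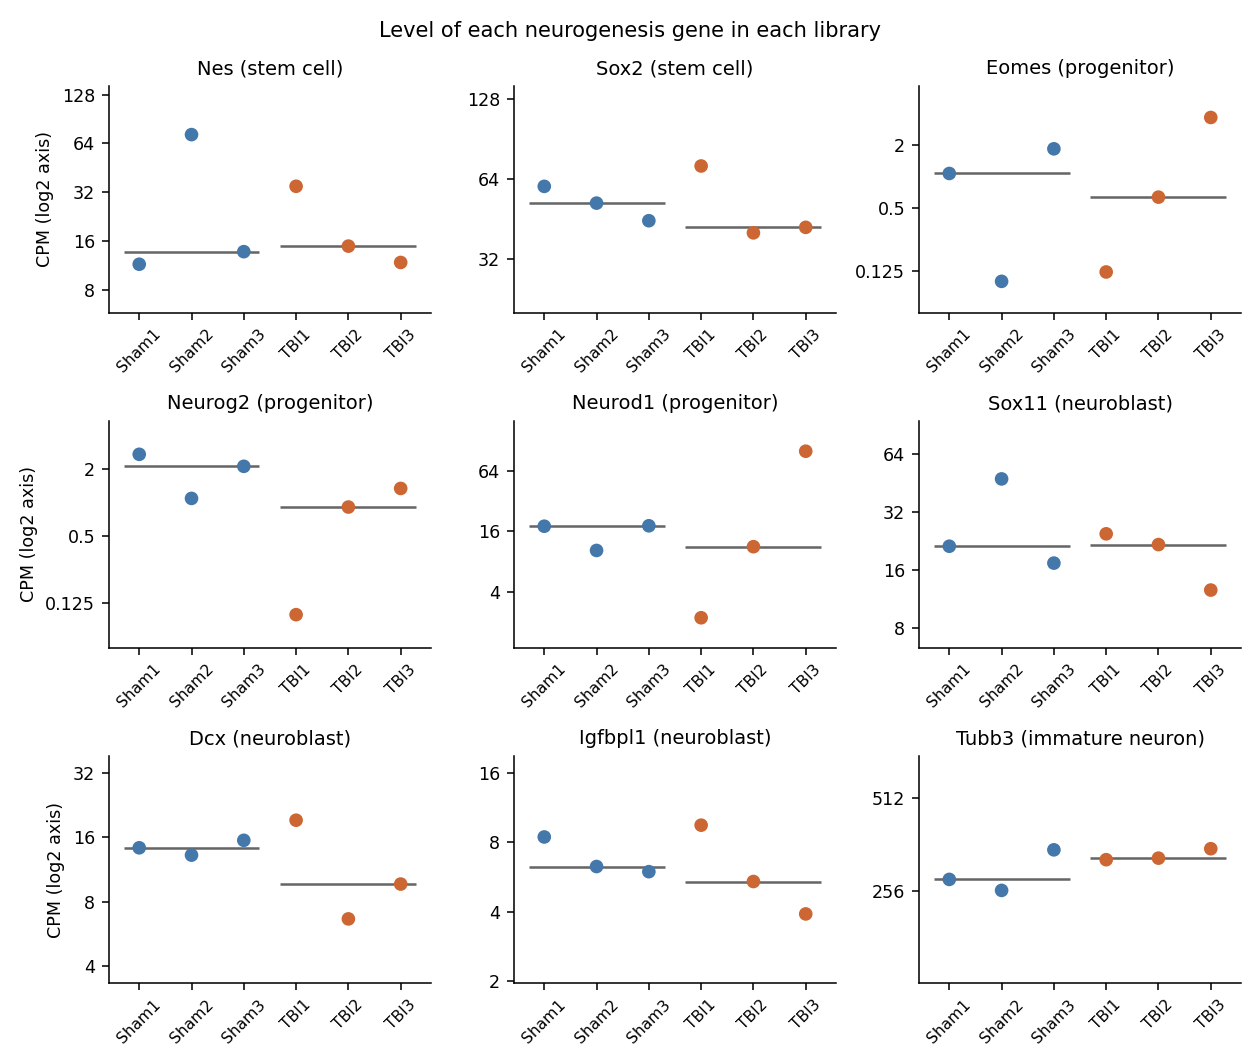
CPM of each of the 9 genes in the 3 sham (blue) and 3 TBI (orange) libraries, on log2 axes that differ between panels, with the group median as a grey line. In each panel the 2 groups overlap, with Sham2 highest for Nes and Sox11, TBI1 lowest for Neurog2 and Neurod1, and TBI3 highest for Neurod1 and Eomes.

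Levels can be compared between genes only per length, here as RPKM over the exonic bases of each gene in the sham libraries. Tubb3, a neuronal beta-tubulin, was highest at 157 ± 25.4 RPKM (SD, n = 3), followed by Sox2 at 25.3 ± 3.75. Neurod1 followed at 5.66 ± 1.63, Nes at 5.08 ± 5.40 and Sox11 at 3.44 ± 1.97. The sham ranges of Neurod1, Nes and Sox11 overlapped, so their order is not resolved. Igfbpl1 at 2.12 ± 0.415 RPKM overlapped the ranges of Nes and Sox11 and lay above Dcx at 1.13 ± 0.0905. Neurog2 at 0.894 ± 0.373 RPKM overlapped Dcx, and Eomes was lowest at 0.239 ± 0.208. Among the tested genes, Tubb3 ranked at the 98.8th percentile of RPKM and Eomes at the 9.94th. The stem cell factor and the tubulin thus stood far above the progenitor and neuroblast genes per length.

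Nes encodes nestin, the intermediate filament protein of neural stem cells (chromosome 3, 87971078 to 87980451, plus strand, GRCm38). Nes was at 11.5, 72.5 and 13.7 CPM in Sham1, Sham2 and Sham3, and at 34.8, 14.9 and 11.8 CPM in TBI1, TBI2 and TBI3. Sham2 was 2.08 times the next library, TBI1, and the other 4 libraries lay within 11.5 to 14.9 CPM. The log2 fold change of Nes was -0.67 (SE 0.790, 95% interval -2.56 to 1.22, adjusted p = 0.982 by edgeR). Without Sham2 it was 0.70, and without TBI1 it was -1.29, so the direction rested on Sham2. The reactive astrocyte genes moved in the same library: Gfap, the astrocyte intermediate filament, was at 4055 CPM in Sham2 and 2.74 times the next library, and Serpina3n was at 477 CPM against 24.7 to 102. Their part in the Nes value was not tested.

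Sox2, the HMG-box factor that keeps stem cells undifferentiated (chromosome 3, 34650405 to 34652461, plus strand), was at 60.0, 51.9 and 44.5 CPM in sham and at 71.5, 40.1 and 42.1 CPM in TBI. TBI1 was the highest library and the other 2 TBI libraries were the lowest, so the groups overlapped only through TBI1. The means of Sox2 were 52.1 ± 7.71 CPM in sham and 51.2 ± 17.6 in TBI (SD, n = 3), and the log2 fold change was -0.025 (SE 0.253, 95% interval -0.63 to 0.58). Without TBI1 the difference was -0.34 on the log2 scale (adjusted p = 0.906). Sox2 lies inside the noncoding gene Sox2ot on the same strand, with which it shares 0 exonic bases. Sox2ot was at 5.18 to 35.5 CPM in sham and 10.5 to 21.6 CPM in TBI, with a log2 fold change of 0.016.

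Of 15 other stem cell genes 14 could be tested, 8 with a log2 fold change above 0 and 6 below, with a median of 0.25, and none was called by edgeR. Without Sham2 the split was 6 above and 9 below of 15, with a median of -0.085. The smallest p in each direction belonged to Fabp7, a fatty acid binding protein of radial glia, and to Frzb, a secreted Wnt inhibitor. Fabp7 was at 54.3, 23.8 and 47.4 CPM in sham and 52.5, 69.5 and 72.3 CPM in TBI, a log2 fold change of 0.63 (adjusted p = 0.982). Frzb was at 21.2, 13.8 and 17.4 CPM in sham and 4.87, 12.3 and 10.5 CPM in TBI, a log2 fold change of -0.92 (adjusted p = 0.982). The 3 TBI values of Frzb lay below the 3 sham values, with TBI1 the lowest. Nes and Sox2 therefore stood among stem cell genes of which none passed the test in either direction.

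Eomes (Tbr2), the T-box factor of intermediate progenitors (chromosome 9, 118478212 to 118486132, plus strand), had the lowest sham RPKM of the 9 genes. Eomes was at 1.06, 0.0997 and 1.82 CPM in sham and at 0.122, 0.632 and 3.62 CPM in TBI, from 43, 4 and 70 counts and from 5, 20 and 129 counts. Sham2 and TBI1 were both near 0.1 CPM, and the highest library was TBI3. For Eomes the log2 fold change was 0.55 (SE 1.29, 95% interval -2.53 to 3.64), and without TBI3 it was -1.42. Without Sham2 it was 0.015 and without TBI1 it was 1.10. Neither a rise nor a fall of Eomes of that size could be told from the spread between mice. The antisense gene Gm33460 shares 118 bases with the exons of Eomes (2.84% of them) and had at most 6 counts in any library.

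Neurog2, the proneural factor that starts neuronal differentiation (chromosome 3, 127633135 to 127635631, plus strand), had the smallest p of the 9. Neurog2 was at 2.74, 1.10 and 2.14 CPM in Sham1, Sham2 and Sham3 and at 0.0980, 0.916 and 1.35 CPM in TBI1, TBI2 and TBI3. TBI1 was 9.35 times below the next library, from 4 counts, and TBI3 lay above Sham2. The groups overlapped for Neurog2 only through TBI3 and Sham2. The means were 1.99 ± 0.832 CPM in sham and 0.788 ± 0.635 in TBI (SD, n = 3). The log2 fold change of Neurog2 was -1.34 (SE 0.842, 95% interval -3.35 to 0.67, adjusted p = 0.982 by edgeR). It stayed below 0 in the 22 alternatives that tested Neurog2, from -2.01 to -0.81, with -0.81 without TBI1 and -2.001 without TBI3 in edgeR. Neurog2 was thus lower in TBI in direction without passing the test, and its size depended on both libraries.

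Neurod1, the factor of late progenitors and young granule neurons (chromosome 2, 79452521 to 79456751, minus strand), had the widest spread in TBI. Neurod1 was at 17.9, 10.3 and 18.1 CPM in sham and at 2.20, 11.2 and 99.8 CPM in TBI. TBI3 was 5.51 times the next library and TBI1 was 4.67 times below the next, while TBI2 lay within the sham range. The coefficient of variation was 28.9% in sham and 143% in TBI, the 99.1th percentile of all tested genes, whose median was 19.7%. For Neurod1 the log2 fold change was 1.29 (SE 1.17, 95% interval -1.51 to 4.09, adjusted p = 0.982 by edgeR). Without TBI3 it was -1.22 and without TBI1 it was 1.85, so the sign followed TBI3.

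The libraries that set the range of Neurod1 were those that stood apart in the marker lists. In TBI3, Cbln3, a marker of cerebellar granule cells, was at 534 CPM, 264 times the next library. Prox1, the homeobox factor of dentate granule cells, was at 96.0, 72.2 and 70.0 CPM in sham. In TBI1, TBI2 and TBI3 it was at 19.6, 56.5 and 56.0 CPM. All 3 TBI values lay below the 3 sham values, so ratios to Prox1 are raised in every TBI library relative to sham. The log2 fold change of Prox1 was -0.85 (adjusted p = 0.982 by edgeR). Per Prox1 count, Neurod1 was at 0.187, 0.143 and 0.259 in sham and at 0.113, 0.199 and 1.78 in TBI1, TBI2 and TBI3. The low value of TBI1 came close to the sham values on that scale, and the high value of TBI3 did not. Per Prox1 count, Neurog2 was at 0.0286, 0.0152 and 0.0305 in sham and at 0.00501, 0.0162 and 0.0241 in TBI, and TBI1 remained the lowest. The part of the other regions' RNA in these values was not tested.

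Exons of Neurod1 overlap 2 other genes. Cerkl on the same strand shares 201 bases (7.37% of the exonic bases of Neurod1) and the noncoding Gm26755 on the opposite strand shares 154 bases (5.64%). Gm26755 was at 1.01, 0.498 and 0.912 CPM in sham and at 0.147, 0.537 and 5.84 CPM in TBI, lowest in TBI1 and highest in TBI3 as Neurod1 was. The strandedness of the libraries is not given in the sources used here, so reads of Neurod1 and Gm26755 over the shared bases cannot be told apart. Cerkl was at 1.42 to 6.86 CPM in sham and 1.13 to 6.35 CPM in TBI, with a log2 fold change of -0.26, and was not highest in TBI3.

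Among the 10 genes of proliferating and committed progenitors, 5 had a log2 fold change above 0 and 5 below, with a median of 0.0030, and none was called by edgeR or had an unadjusted p under 0.05. Without TBI1, 2 were above and 8 below, with a median of -0.22, and without TBI3, 7 were above and 3 below, with a median of 0.070. Mki67, which marks dividing cells, was at 3.48, 2.77 and 2.84 CPM in sham and 8.16, 4.01 and 1.77 CPM in TBI, a log2 fold change of 0.62 (SE 0.532). TBI1 was the highest library for Mki67 and TBI3 the lowest. Insm1, a zinc finger factor of intermediate progenitors, was at 14.0, 7.75 and 7.58 CPM in sham and 11.3, 5.81 and 5.17 CPM in TBI, with a log2 fold change of -0.40 (SE 0.398). The 2 groups overlapped for both genes.

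**Figure D3:**
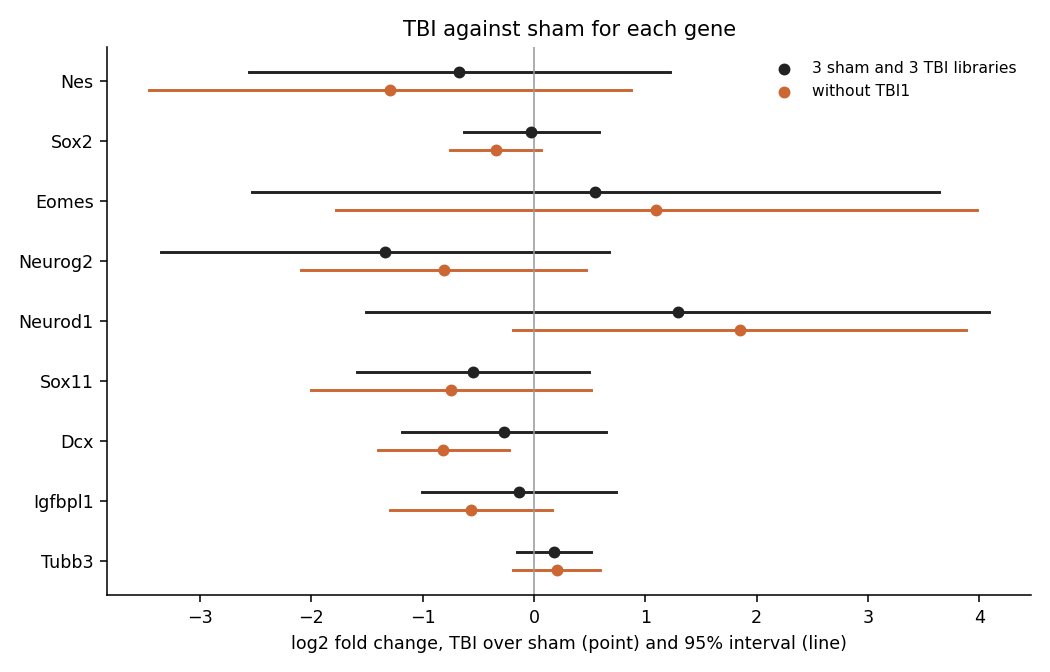
Log2 fold change of TBI over sham for each gene (point) with its 95% interval (line), from all 6 libraries in black and without TBI1 in orange. Every black interval crosses 0, and of the orange intervals only that of Dcx lies wholly on one side of 0.

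Sox11, an HMG-box factor of neuroblasts (chromosome 12, 27334264 to 27342574, minus strand), was at 21.2, 47.3 and 17.3 CPM in sham and at 24.5, 21.6 and 12.5 CPM in TBI. As for Nes, Sham2 was the highest library, here 1.93 times the next, and the other 5 lay within 12.5 to 24.5 CPM. The log2 fold change of Sox11 was -0.55 (SE 0.436, 95% interval -1.59 to 0.49) and without Sham2 it was 0.024.

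Dcx encodes doublecortin, the microtubule-associated protein of migrating neuroblasts (chromosome X, 143855842 to 143933311, minus strand). Dcx was at 14.3, 13.2 and 15.5 CPM in Sham1, Sham2 and Sham3 and at 19.3, 6.64 and 9.67 CPM in TBI1, TBI2 and TBI3. The sham values were close together, TBI1 lay above them and TBI2 and TBI3 lay below. The coefficient of variation was 7.99% in sham and 55.6% in TBI. Dcx had a log2 fold change of -0.27 (SE 0.383, 95% interval -1.19 to 0.64, adjusted p = 0.982 by edgeR). Without TBI1 it was -0.81 (SE 0.239), with an unadjusted p of 0.0155 and an adjusted p of 0.906 by edgeR, and with DESeq2's defaults it was -0.83, with an adjusted p of 0.344. Against TBI2 alone, the TBI library in which none of these region lists stood apart, the log2 fold change was -1.11 with all 3 sham libraries. With Sham1 and Sham3 only it was -1.17. In that comparison the reactive astrocyte list was above 0 for 6 of 6 genes, with a median of 1.12. The 2 comparisons with TBI2 alone gave 1 (Dcx, background 1.7%) and 3 (Neurog2, Neurod1 and Dcx, background 4.17%) of the 9 genes an unadjusted p under 0.05. With DESeq2's defaults the count was 1 without TBI1 (Dcx, background 4.34%) and 1 without TBI3 (Neurog2, background 3.33%). Without TBI2 the log2 fold change of Dcx was 0.0099 in edgeR and 0.013 in DESeq2. Dcx lay below sham in TBI2 and TBI3 and above it in TBI1, and no fit called it.

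Igfbpl1, an insulin-like growth factor binding protein family member of newborn neurons (chromosome 4, 45809468 to 45826923, minus strand), was at 8.44, 6.28 and 5.97 CPM in sham and at 9.50, 5.40 and 3.91 CPM in TBI. TBI1 was again the highest library and TBI2 and TBI3 were the lowest. For Igfbpl1 the log2 fold change was -0.14 (SE 0.365, 95% interval -1.01 to 0.74), and without TBI1 it was -0.57 (adjusted p = 0.906). Per Prox1 count, Igfbpl1 was at 0.0880, 0.0870 and 0.0853 in sham and at 0.486, 0.0957 and 0.0697 in TBI. Per Prox1 count, Dcx was at 0.149, 0.183 and 0.222 in sham and at 0.984, 0.118 and 0.173 in TBI. Tubb3 (16.5 against 2.90 to 6.25), Sox2 (3.65 against 0.625 to 0.751), Nes and Sox11 were also highest in TBI1 per Prox1 count, in the library with the lowest Prox1. On this scale the TBI1 values of Dcx and Igfbpl1 lay above every other library, while TBI2 and TBI3 lay on either side of the sham values for Igfbpl1, and below and within them for Dcx. Prox1 itself was lower in every TBI library than in every sham library, which raises these ratios in TBI2 and TBI3 as well.

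Sox2, Dcx and Igfbpl1 shared 1 arrangement: highest in TBI1, lowest in TBI2 and TBI3. Without TBI1 these 3 of the 9 genes were lower in each remaining TBI library than in every sham library, against 11.3% of all tested genes, and 1 of the 9 (Dcx) had an unadjusted p under 0.05, against 4.33%. The count of genes that did not overlap was made without TBI1 only. It therefore follows from the arrangement of these 3 genes and is a description. In TBI1 the 8 genes of the subventricular zone and olfactory lineage list summed to 160 CPM against 37.8 to 69.0, and Six3, a homeobox factor of the forebrain, was at 45.3 CPM against 0.947 to 9.33. Dlx1, a homeobox factor of the interneuron lineage on that list, was at 23.2 CPM in TBI1 within a range of 12.4 to 38.6 in the others. Their part in the TBI1 values of Dcx, Igfbpl1 and Sox2 was not tested.

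Tubb3, the tubulin taken up at the immature neuron stage and kept in mature neurons (chromosome 8, 123411424 to 123422015, plus strand), was at 278, 256 and 347 CPM in sham and at 322, 326 and 350 CPM in TBI. The 3 TBI values were close together, with a coefficient of variation of 4.50%, and Sham3 lay among them. For Tubb3 the log2 fold change was 0.18 (SE 0.140, 95% interval -0.15 to 0.51, adjusted p = 0.982 by edgeR). It was above 0 in all 23 alternatives, from 0.056 to 0.31. This interval was the narrowest of the 9 genes, and its upper bound moved to 0.63 without Sham3 and to 0.73 for 3 sham libraries against TBI2 alone.

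Among 18 other neuroblast and immature neuron genes, 9 had a log2 fold change above 0 and 9 below, with a median of -0.026, and none was called by edgeR. The median ran from -0.12 without TBI1 to 0.046 without Sham3, and DESeq2's defaults called 1 of the 18 without Sham3 and 1 without TBI2. Marcksl1, a membrane-associated actin regulator, was at 139, 139 and 114 CPM in sham and at 86.2, 97.5 and 78.5 CPM in TBI. All 3 TBI libraries lay below all 3 sham libraries, and the log2 fold change was -0.58 (SE 0.138, adjusted p = 0.982 by edgeR). It was the only one of the 18 with an unadjusted p under 0.05. Neurod4, a helix-loop-helix factor, was at most 1.64 CPM in any library and had a log2 fold change of 1.20 (SE 0.947). Of the 9 mature granule cell genes, 2 had a log2 fold change above 0 and 7 below, with a median of -0.84 and no call by edgeR, and 6 of the 9 were lowest in TBI1. Without TBI1 the median was -0.43 and without Sham1 it was -0.47, and DESeq2's defaults called 2 of the 9 without TBI2. With all 6 libraries 0 of the 9 had an unadjusted p under 0.05 in edgeR and 3 in DESeq2's defaults, against 4.29% and 4.11% of all genes. Calb1, the calcium buffer calbindin, was at 128, 143 and 137 CPM in sham and 215, 111 and 493 CPM in TBI, highest in TBI3. C1ql3, a secreted synaptic protein, was at 121, 83.1 and 111 CPM in sham and 43.6, 96.6 and 59.1 CPM in TBI, lowest in TBI1.

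**Figure D4:**
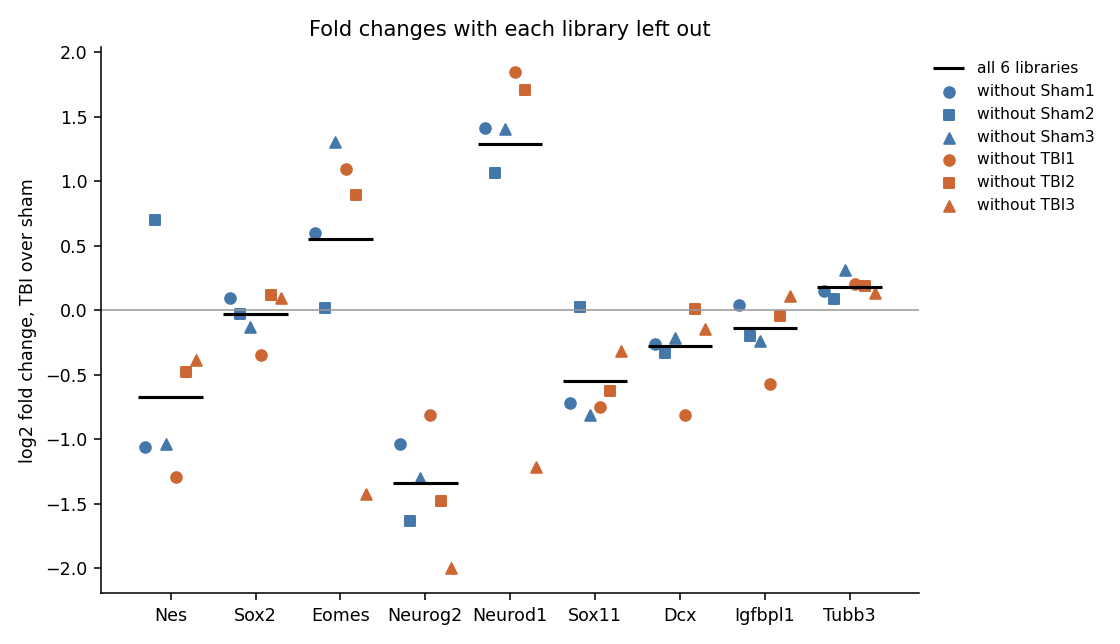
Log2 fold change of each gene with 1 library left out at a time (symbols; blue for a sham library, orange for a TBI library), beside the value from all 6 libraries (black bar). Nes turns from -0.67 to 0.70 without Sham2, Eomes from 0.55 to -1.42 and Neurod1 from 1.29 to -1.22 without TBI3, while Neurog2 stays below 0 and Tubb3 above 0 throughout.

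The signals of the niche that act on the lineage were described by 5 lists. The 6 Hedgehog genes, whose ligand maintains stem cells, all had a log2 fold change above 0, with a median of 0.50 beside 0.0091 for all genes. Of the 6, 1 had an unadjusted p under 0.05 in edgeR, against 4.29% of all genes. Of the 6, 3 were highest in TBI1 and 2 in TBI3, and 3 were lowest in Sham2. The median was 0.36 without TBI1 (6 of 6 above 0), 0.43 without TBI3 (5 of 6), and 0.26 for 3 sham libraries against TBI2 alone (5 of 6). It was 0.12 for Sham1 and Sham3 against TBI2 (6 of 6). Without TBI1 and without TBI3, 0 of the 6 had an unadjusted p under 0.05 in edgeR, beside 836 of 19319 and 558 of 19360 genes. With the replicate block 2 of the 6 did, beside 723 of 18795 genes. The gene under 0.05 with all libraries was Ptch1, the receptor and a target of the pathway, at 53.3, 41.8 and 72.4 CPM in sham and 94.2, 65.2 and 112 CPM in TBI (log2 fold change 0.70, SE 0.268, adjusted p = 0.982 by edgeR). TBI2 lay below Sham3 for Ptch1, so the groups overlapped. Of the 10 growth factor and chemokine genes 2 were above 0 and 8 below, with a median of -0.37, which was -0.23 without Sham2. Egfr, the epidermal growth factor receptor, was at 10.7, 13.0 and 11.8 CPM in sham and 17.8, 14.7 and 15.4 CPM in TBI, with a log2 fold change of 0.43 (SE 0.165, adjusted p = 0.982). The 3 TBI values of Egfr lay above the 3 sham values. Fgfr1, a fibroblast growth factor receptor, was highest in Sham2 with a log2 fold change of -0.65, at 208 CPM against 72.8 to 99.0.

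Of the 10 Wnt genes 9 were tested, 6 above 0 and 3 below, with a median of 0.11. Without TBI3 the split was 3 above and 6 below with a median of -0.097, and without TBI1 the median was -0.0026. Wnt3, a ligand that promotes neuronal fate in the niche, was at 2.64 to 7.29 CPM in sham and 5.32 to 19.4 CPM in TBI (log2 fold change 1.26, SE 0.556, adjusted p = 0.982), and Frzb, given above, was the lower gene with the smallest p. The 8 Notch genes split into 3 above and 5 below, with a median of -0.062, which ran from -0.24 without TBI1 to 0.17 without TBI3. The Notch targets Hes5 and Hes1 had log2 fold changes of 0.41 and -0.65. The 10 BMP genes split into 4 above and 6 below, with a median of -0.088, which was 0.023 without Sham3. Their receptors Bmpr1a and Bmpr2 had log2 fold changes of 0.13 and -0.19. No gene of the 5 lists was called by either tool.

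The genes of other regions and cell types were described in the same way, and edgeR called none of them. With all 6 libraries DESeq2's defaults called 1 subventricular gene, and DESeq2 on the filtered genes called 1 subventricular and 1 cerebellar gene. The defaults gave a p-value to 0 of the 8 striatal, 2 of the 6 cerebellar and 4 of the 6 reactive astrocyte genes. The rest of these 3 lists was thus not tested in that fit. Without TBI2 its defaults called 4 principal neuron, 3 striatal, 2 cerebellar and 1 subventricular gene. Its defaults also called 1 reactive astrocyte gene without Sham2, 1 neocortical and 1 subventricular gene without Sham3, 1 cerebellar and 1 interneuron gene without TBI1, and 1 subventricular gene without TBI3. The striatal list was above 0 for 8 of 8 genes with a median of 3.40, and the cerebellar list for 6 of 6 with a median of 5.86, led by Cbln3. Without TBI1 the striatal list had 5 above and 3 below with a median of 0.034, and without TBI3 the cerebellar list had 4 and 2 with a median of 0.17. The subventricular list had 4 above and 3 below with a median of 0.55 in edgeR and 3 and 4 with a median of -0.21 in DESeq2's defaults, and without TBI1 it had 1 above and 6 below with a median of -0.81. The neocortical list had 4 and 2 with a median of 0.065 (Foxp2 at 1.47 and Rasgrf2 at -0.12), and the interneuron list 3 and 3 with a median of 0.11 (Pvalb at 1.84 and Sst at -0.48), and both medians turned below 0 without 1 library (-0.029 without Sham1 and -0.092 without TBI1). The hippocampal principal neuron list had 2 above and 8 below with a median of -0.91, which was -0.53 without TBI1, and Grik4, a kainate receptor subunit of CA3 neurons, was at 27.5 to 54.5 CPM in sham and 13.4 to 27.2 CPM in TBI. Of these 10 genes 1 had an unadjusted p under 0.05 in edgeR and 6 in DESeq2's defaults, against 4.29% and 4.11% of all genes. The reactive astrocyte list had 2 above and 4 below with a median of -1.08 (Vim at 0.15 and Serpina3n at -1.47), and without Sham2 it had 6 of 6 above with a median of 1.50. The choroid plexus and ependyma list had 2 and 4 with a median of -0.23 (Foxj1 at 0.12 and Ttr at -0.55), with 0 of 6 above and a median of -0.70 without Sham2, and medians from -1.19 without TBI2 to 0.15 without Sham3. Lists of astrocytes, of endothelium and pericytes, and of oligodendrocyte precursors had 4 above in each, and 2, 3 and 2 below, with medians of 0.056, 0.013 and 0.15, which ran without 1 library from 0.055 to 0.22, from -0.099 to 0.050 and from -0.11 to 0.29.

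The 9 genes were last compared with each other and with all tested genes by Pearson's r of log2 CPM over the 6 libraries, which share the libraries that stood apart, so the coefficients are descriptions only. Neurog2, Neurod1 and Eomes went together, with r of 0.85 for Eomes and Neurod1, 0.72 for Neurog2 and Neurod1 and 0.64 for Eomes and Neurog2. Their highest library differed, Sham1 for Neurog2 and TBI3 for Eomes and Neurod1. Sox2, Dcx and Igfbpl1 went together with r of 0.70 to 0.90. Nes and Sox11 went together at 0.89, and each stood at -0.89 against Eomes. The strongest opposite pairs besides these were Sox11 with Tubb3 at -0.84 and Neurod1 with Igfbpl1 at -0.82. Tubb3 was closest to Eomes, at 0.62. No cut on r was set, and 3 patterns over the libraries could be described: the high Sham2 (Nes, Sox11), TBI1 against TBI2 and TBI3 (Sox2, Dcx, Igfbpl1), and, for the progenitor genes, TBI1, TBI2 and Sham2 as the 3 lowest libraries. Tubb3 and Eomes both had Sham2 lowest and TBI3 highest.

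**Figure D5:**
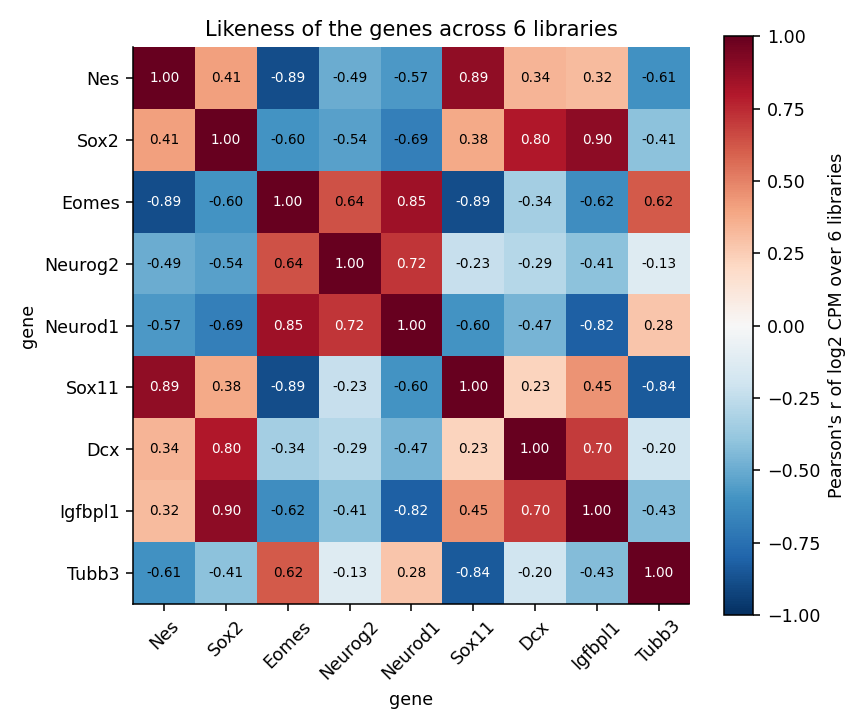
Pearson's r between the 9 genes over the 6 libraries, from log2 CPM, with red for positive and blue for negative r. The dark red pairs are Nes with Sox11 (0.89), Sox2 with Igfbpl1 (0.90) and Eomes with Neurod1 (0.85).

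The outside gene closest to each member was found among all tested genes. Nes was closest to Dtx2 (r = 0.998), Sox2 to Atf6 (0.990), Sox11 to Ensa (0.994), Igfbpl1 to Kcnv1 (0.995) and Tubb3 to Adra1b (0.986). Eomes was closest to Sox14 (0.997), at 0 to 3.15 CPM, and Neurog2 to Gm16267 (0.996), at 0.0490 to 0.988 CPM. Dcx was closest to Cpn1 (0.993), which had at most 1.03 CPM. Neurod1 was closest to Gm26755 (0.989), the opposite-strand gene whose exons it overlaps. Each was the highest coefficient among the tested genes outside the members, over only 6 libraries.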

How the data were processed

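The study measured hippocampal RNA by sequencing. Per the labels and the methods, FastQC, HISAT2 (on GRCm38) and StringTie were used, and the authors deposited estimated counts, unnormalized whole numbers for each gene. Values of 4 occurred 5109 times and values of 3 only 2325 times, so the numbers are no tally of reads and counting error was not derived. Versions, strandedness and the conversion to counts are not given in the sources used here. The 3 samples per group are separate mice.

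With R 4.3.3, counts were filtered by filterByExpr, scaled by TMM and tested with edgeR 4.0.16 (quasi-likelihood test, Benjamini-Hochberg adjustment). RPKM used GENCODE vM21 exonic bases, and log2 CPM a prior count of 2. The fitting was tested on simulated data as a check of the code. Recovery of changed genes was required there only at a spread well below that of these libraries, so the check does not give the power of this design. In all, 23 alternatives were run, 8 of them chosen after seeing the data: DESeq2 1.42.0, other scalings and filters, robust dispersions, a replicate block, each library left out, and TBI2 alone. The members and lists were chosen with earlier results of these data known. Named genes were the members, genes overlapping their exons, the smallest p in each direction of each list, and the closest member and outside gene by Pearson's r. Genes given beside a library that stood apart (Gfap, Prox1 and C1ql2) were chosen after their values were seen. The result of 1 gene that the rule names is not reported here.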

Additional observations from a re-analysis of the deposited data

How the results depend on the processing

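No neurogenesis gene was called in any of the 23 alternatives. Without 1 library at a time the number with an unadjusted p under 0.05 was 0 to 1 with edgeR and 0 to 1 with DESeq2's defaults (Dcx without TBI1 in both, and Neurog2 without TBI3 in DESeq2). Against TBI2 alone it was 1 (Dcx) with 3 sham libraries and 3 (Neurog2, Neurod1 and Dcx) with Sham1 and Sham3, where TBI2 is assumed to vary as the sham libraries do. With each library left out in turn, edgeR's log2 fold change ran from -1.29 to 0.70 for Nes (above 0 without Sham2), from -0.34 to 0.12 for Sox2 (above 0 without Sham1, TBI2 or TBI3, at 0.097, 0.12 and 0.096), from -1.42 to 1.31 for Eomes and from -1.22 to 1.85 for Neurod1 (both below 0 without TBI3). It ran from -0.81 to 0.024 for Sox11 (above 0 without Sham2), from -0.81 to 0.0099 for Dcx (above 0 without TBI2) and from -0.57 to 0.11 for Igfbpl1 (above 0 without Sham1 or TBI3, at 0.045 and 0.11). No sign turned for Neurog2 (-2.001 to -0.81) or Tubb3 (0.090 to 0.31). DESeq2's defaults turned the same signs, to 0.69 for Nes and 0.015 for Sox11 without Sham2, 0.085, 0.12 and 0.092 for Sox2, -1.42 for Eomes, -1.22 for Neurod1, 0.013 for Dcx, and 0.034 and 0.11 for Igfbpl1. For 3 sham libraries against TBI2, Eomes was at -0.65 and Neurod1 at -0.46. For Sham1 and Sham3 against TBI2, Nes was at 0.23, Eomes at -1.19, Neurod1 at -0.69 and Sox11 at 0.16. Beyond the libraries left out, the cause was not tested.

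The replicate numbers did not pair the samples: deviations of same-numbered libraries correlated at -0.0996, -0.0650 and 0.153, and not every library was closest to its own number. With the replicate block, 723 genes in place of 806 had an unadjusted p under 0.05, no neurogenesis gene did, and Neurod1 turned to -0.040. With at least 10 counts in every library, Eomes and Neurog2 were not tested. DESeq2 called 46 genes with its defaults, 50 on the filtered genes and 33 to 325 without 1 library. For edgeR the count was 0 with all 6 libraries, 0 to 1 without 1 library, and 1 and 11 in the fits with TBI2 alone. With 3 mice per group, the intervals of Nes, Eomes, Neurog2 and Neurod1 hold changes of more than 4-fold.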
